A study of Mus musculus with 14 samples.

Results

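The genes described here take up, make or break down organic osmolytes, or answer to the transcription factor NFAT5. They are Slc6a6, Slc6a12, Slc5a3, Akr1b3, Nfat5, Sord, Chdh, Cdo1, Csad and Slc14a2, 10 of the 22263 genes counted in either tissue. The set was drawn up around Slc6a6, which was chosen by its measured liver values, higher on high salt, so its liver contrast is given without a test. The liver count table holds 9 of the 10, Slc14a2 being analysed here in kidney alone, and the kidney table holds all 10. In each tissue 9 passed the filter on low counts. The one that did not pass in kidney was Slc6a12, with 4 to 15 counts a library.

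RNA came from liver and kidney of adult male mice, 12 weeks old, that carried human angiotensinogen with the -6A haplotype, labelled Hap -6A in every group. In each tissue 1 group had the Normal Diet and the other High Salt, so the controls carry the transgene too, and no group without it was analysed here. There were 4 libraries of liver and 3 of kidney for each diet. The labels give neither the salt dose nor the time on the diet, nor do they say whether each library is a separate animal, so the p-values measure the spread between these samples, which may be technical. Normal diet libraries are called N1 to N4 in liver and N1 to N3 in kidney, and high salt kidney libraries H1 to H3. The high salt liver columns carry numbers that match no sample title and are called HS5 to HS8.

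Gene counts summed to 37267778 to 51487382 per liver library and to 16046094 to 22004927 per kidney library. Mitochondrial transcripts took 2.30% and 2.06% of the counts of liver N1 and N2 and 11.3% to 29.6% of the other liver libraries. HS5 and HS6 were closer to each other than any other liver pair of one diet (chi-square per gene 1.60 against 9.90 to 61.2 in 11 pairs). The labels do not say whether these come from the same animal or RNA. The main liver fits count them as separate libraries, so liver SDs, standard errors and p-values may be too small. Liver fold changes are also given with both summed to 1 library. Among kidney pairs of one diet, N2 and N3 were closest (4.23). Kidney N1 was far from each of them (49.2 and 50.4), and high salt kidney pairs lay at 11.4 to 20.1. Hepatocyte markers led the liver libraries (summed level 49200 to 106000 counts per 1000000 counts of the library, CPM, over 5 genes, against 825 to 1620 CPM in kidney), and proximal tubule markers were at 1970 to 3370 CPM over 6 genes in kidney against 0.476 to 8.07 CPM in liver. The liver diets did not overlap in summed hepatocyte markers (49200 to 76800 CPM on the normal diet, 87500 to 106000 CPM on high salt). Most of that sum was Alb, with means of 43960 and 74600 CPM. Cyp2e1 was lower in every high salt library, and Apoa1, Ttr and Cps1 overlapped. The sum of 3 stellate cell markers did not overlap either (59.4 to 119 and 127 to 149 CPM), while that of 3 endothelial markers did. Neutrophil markers stood at 53.5 CPM in liver N4 and at 0.689 to 1.41 CPM in the other liver libraries.

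Organic osmolytes are small neutral solutes, such as taurine, betaine, myo-inositol, sorbitol and glycerophosphocholine, that cells gather when the fluid around them becomes salty, so that water is held without a rise in cell salt. NFAT5, also called TonEBP, moves to the nucleus in such fluid, binds tonicity-responsive elements and raises transcription of the transporters and of aldose reductase. The kidney medulla is the best known site of this system, since its fluid is kept concentrated in order to concentrate urine. In liver the same solutes also serve metabolism: taurine is joined to bile acids, and betaine from choline gives methyl groups to homocysteine.

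The upstream stretches of the members show how differently they are built, and 1 of them holds a match to the tonicity-responsive element. RefSeq windows on GRCm38.p6, each with 250 bases before a transcription start and 50 bases after it, were matched for 6 of the 10 members (Slc6a12, Slc5a3, Nfat5, Sord, Chdh and Csad). Slc6a6, Akr1b3, Cdo1 and Slc14a2 had no match. Both strands were searched for the tonicity-responsive element and for its core TGGAAA, which every match to the element includes. The element was found in 1 of 13 member windows, that of the upstream-most of 5 Slc6a12 starts, against 4.96% of all 32851 windows. That start lies upstream of the Slc6a12 start in GENCODE M21. The match is 75 to 65 bases before it, at chr6:121342499-121342509, and a match is only a description of the letters, not a site of binding. The core was found in 2 of 13 member windows, against 21.4% of all windows. These were the same Slc6a12 window and a Chdh window other than the one printed below. The 250 bases before the first start are printed for Slc6a12, for the contrast Slc5a3, and for Chdh and Csad, the enzymes with the highest liver fold changes, with the element in capitals.
Slc6a12, chr6:121342324-121342573, plus strand: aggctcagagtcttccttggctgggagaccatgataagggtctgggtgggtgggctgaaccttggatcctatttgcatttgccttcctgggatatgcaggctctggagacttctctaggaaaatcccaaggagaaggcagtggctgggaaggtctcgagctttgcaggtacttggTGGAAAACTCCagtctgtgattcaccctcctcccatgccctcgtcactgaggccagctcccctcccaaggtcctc
Slc5a3, chr16:92058072-92058321, plus strand: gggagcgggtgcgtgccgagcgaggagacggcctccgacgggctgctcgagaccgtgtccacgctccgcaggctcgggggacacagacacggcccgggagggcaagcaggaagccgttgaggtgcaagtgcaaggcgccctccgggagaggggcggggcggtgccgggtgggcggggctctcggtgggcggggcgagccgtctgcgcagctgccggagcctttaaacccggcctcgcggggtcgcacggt
Chdh, chr14:30008750-30008999, plus strand: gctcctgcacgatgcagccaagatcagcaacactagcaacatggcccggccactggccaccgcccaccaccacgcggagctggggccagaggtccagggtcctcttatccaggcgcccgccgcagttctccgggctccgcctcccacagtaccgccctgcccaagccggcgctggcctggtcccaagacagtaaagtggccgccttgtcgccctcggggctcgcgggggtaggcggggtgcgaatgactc
Csad, chr15:102205053-102205302, minus strand: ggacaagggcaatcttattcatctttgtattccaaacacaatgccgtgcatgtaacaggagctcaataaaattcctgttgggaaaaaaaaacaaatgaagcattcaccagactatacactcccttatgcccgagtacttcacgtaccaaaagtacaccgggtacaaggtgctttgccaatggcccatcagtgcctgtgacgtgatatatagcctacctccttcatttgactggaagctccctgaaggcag
The Slc5a3 stretch is 74.8% G and C with 32 CG pairs and the Chdh stretch 69.2% with 20, against medians of 52.4% and 6 over all windows. The Slc6a12 stretch is 55.6% G and C with 2 CG pairs, and the Csad stretch 44.8% with 5. Slc5a3 and Chdh thus lie far above the median in CG pairs, Slc6a12 below it and Csad near it.

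On high salt, liver held more transcript of the taurine carrier Slc6a6 and of choline dehydrogenase (Chdh) and less of aldose reductase (Akr1b3) in all 4 libraries, while the betaine carrier Slc6a12 differed by -0.09 on the log2 scale. Summed hepatocyte markers, through Alb, and summed stellate cell markers were also higher in all 4 high salt libraries. The part of these markers in the values was not tested. Apart from Slc6a6, which was not tested, no member passed the test in liver, and none passed in kidney. Fold changes are log2 ratios of high salt over the normal diet from edgeR with their standard error (SE), and p-values are adjusted over all genes by the Benjamini-Hochberg method and called under 0.05.

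Of the 8 liver members other than Slc6a6, 0 passed an adjusted p of 0.05 in edgeR, where 1.00% of the 15130 genes tested did. At an unadjusted p under 0.05 there were 3 (Chdh, Csad and Akr1b3), where 21.2% of all genes were. DESeq2 called 1, Chdh, and 7.60% of all genes. Limma on the deposited normalized values called 0, and 1.04% of all genes with a pseudocount of 1 or 0.932% with 0.1. The liver diets did not overlap for Slc6a6, Chdh and Akr1b3, 3 of 9, against 12.5% of all genes (6.44% with high salt higher and 6.05% with it lower), and since the choice of Slc6a6 used this contrast nothing is read from the count. In kidney edgeR called 0 of 9 (0.00% of the 15847 genes tested), 0 at an unadjusted p under 0.05 (2.01% of all genes), and 0 in DESeq2 (0.0694% of all genes). The kidney diets overlapped for all 9, where 6.92% of genes did not (3.85% with high salt higher and 3.07% with it lower). The median log2 fold change was 0.20 in liver over the 8 members other than Slc6a6 and 0.14 in kidney over the 9 tested, against -0.02 over all genes in each. With HS5 and HS6 summed the liver values were -0.56 for Akr1b3, 0.66 for Chdh, 1.53 for Csad, 0.56 for Nfat5 and 0.67 for Slc5a3, and -0.13, -0.24 and -0.28 for Slc6a12, Sord and Cdo1. None of these 8 passed then.

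**Figure D1:**
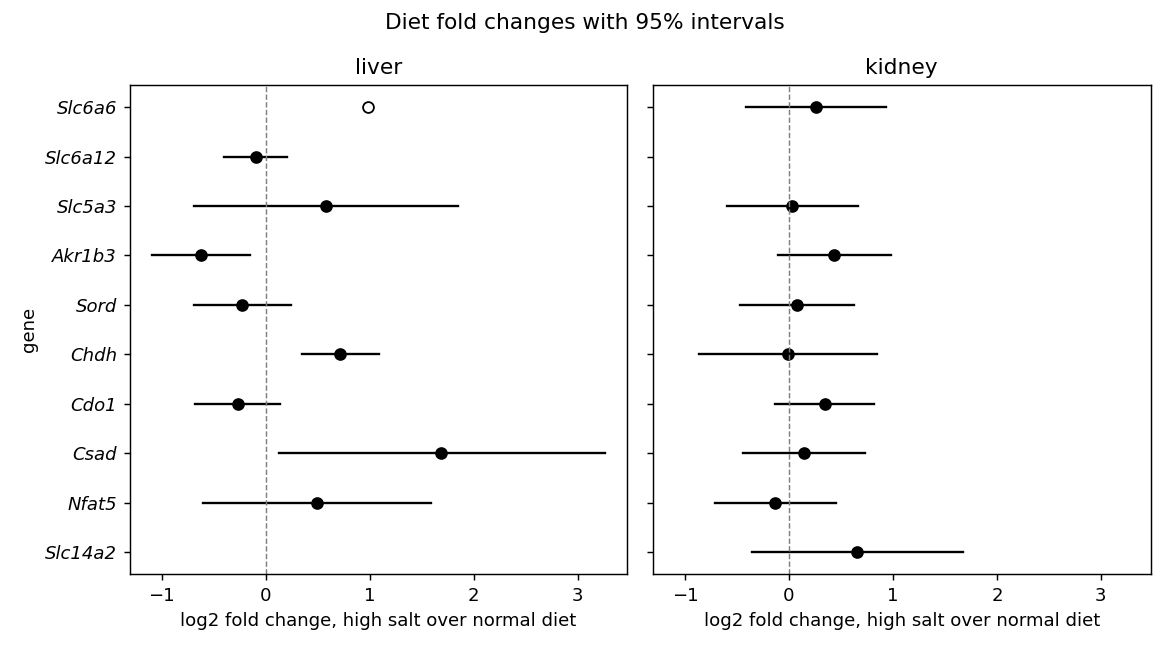
Log2 fold change of high salt over normal diet from edgeR for each gene in liver (left) and kidney (right), with the 95% interval, not adjusted for the number of genes, as a line. Slc6a6 in liver is an open point without interval because it was chosen for that value, Slc14a2 is shown for kidney alone, and Slc6a12 did not pass the kidney filter. Chdh, Csad and Akr1b3 in liver have intervals that leave out 0.

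Slc6a6 encodes TauT, the sodium- and chloride-coupled carrier that brings taurine into cells (chr6:91684053-91759066, plus strand, GRCm38). On the normal diet its liver level was 46.0, 40.9, 38.5 and 28.5 CPM in N1 to N4. On high salt it was 86.3, 84.6, 57.6 and 75.8 CPM in HS5 to HS8. Every high salt library stood above every normal diet library, and the lowest of them was HS7. The mean of 76.1 ± 13.2 CPM compares with 38.5 ± 7.34 CPM in the controls (SD over 4 libraries), and the fitted difference was 0.98 on the log2 scale (SE 0.19), or 0.92 with HS5 and HS6 summed. This is the difference for which the gene was chosen. With N1 and N2, the libraries of low mitochondrial share, left out it was 1.18.

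In kidney Slc6a6 was at a higher level and did not separate the diets. N1 to N3 had 186, 123 and 99.5 CPM, and H1 to H3 had 195, 124 and 169 CPM. The high values are those of N1, H1 and H3, one normal diet library and a pair from high salt. The kidney log2 fold change was 0.26 (SE 0.29, 95% interval -0.41 to 0.93; adjusted p = 1). Markers of several tubule segments were also highest in those 3 libraries. Proximal tubule markers summed to 3365, 2996 and 2772 CPM in N1, H1 and H3 against 1966 to 2292 CPM in the others, and thick ascending limb markers to 2802, 2140 and 2232 against 1696 to 2006 CPM. Principal cell, intercalated cell and cholangiocyte lists did likewise. Distal convoluted tubule markers did not, being lowest in H3 at 173.9 CPM. Podocyte markers were lowest in N1, H1 and H3, at 94.3, 121.4 and 130.2 CPM. The part of these markers in the Slc6a6 values was not tested. In bulk tissue, fewer cells of a type and less RNA per cell cannot be told apart.

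**Figure D2:**
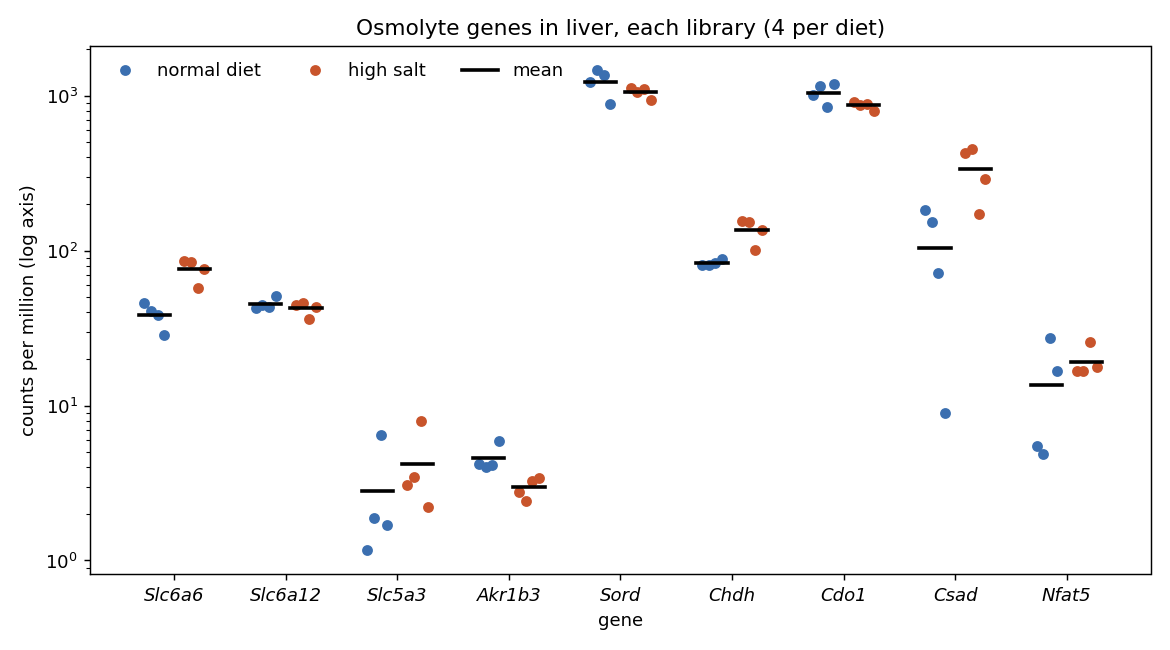
Level of each gene in each liver library, in CPM on a log axis, with the normal diet in blue, high salt in orange and a black bar for the mean of 4 libraries. Slc6a6 and Chdh lie wholly higher and Akr1b3 wholly lower on high salt, and the other 6 genes overlap between the diets.

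Slc6a12 encodes BGT1, the betaine and GABA carrier (chr6:121343076-121365775, plus strand). Its liver level was 42.7, 44.3, 43.3 and 51.0 CPM in N1 to N4 and 44.6, 46.2, 36.1 and 43.3 CPM in HS5 to HS8. The highest of the 8 values was 1.42 times the lowest, the narrowest range of any member in liver, and the diets overlap. The fitted log2 fold change was -0.09 (SE 0.14, 95% interval -0.40 to 0.21; adjusted p = 0.725). In kidney the gene was at 0.350, 0.234 and 0.291 CPM in N1 to N3 and 0.670, 0.252 and 0.455 CPM in H1 to H3. With no filter its kidney log2 fold change was 0.66 (SE 0.61; adjusted p = 1), and a difference was not detectable at this depth.

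Slc5a3 encodes SMIT1, the sodium-coupled myo-inositol carrier (chr16:92058322-92087473, plus strand). It lies within the Mrps6 locus on the same strand and shares an exon with it, so some reads of that exon could be given to either gene. In liver it was at 1.17, 1.88, 6.48 and 1.71 CPM in N1 to N4 and 3.09, 3.48, 7.92 and 2.21 CPM in HS5 to HS8. N3 and HS7 stood far above the other libraries of their diets, and the diets overlap. Here the log2 fold change of 0.58 (SE 0.57; adjusted p = 0.571) became 1.39 without N3, 0.06 without HS7 and 0.03 without N1 and N2, none of which passed the test. N3 and HS7 also had the highest mitochondrial shares, 29.6% and 19.2%, while N4, with 18.7%, had Slc5a3 at 1.71 CPM. The part of the mitochondrial share in the Slc5a3 values was not tested.

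Kidney held far more Slc5a3, 130, 64.6 and 89.2 CPM in N1 to N3 and 107.5, 87.5 and 93.8 CPM in H1 to H3. The high salt values lie inside the span of the normal diet values. The log2 fold change was 0.03 (SE 0.27, 95% interval -0.60 to 0.66; adjusted p = 1), and its sign turned to -0.19 without N2.

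Slc14a2 encodes the UT-A urea transporters of the collecting duct and thin limb, and urea is itself a medullary solute (chromosome 18). In kidney it was at 9.34, 2.40 and 6.25 CPM in N1 to N3 and 9.83, 7.06 and 11.6 CPM in H1 to H3. The lowest value was that of N2 and the diets overlap. The kidney log2 fold change of 0.66 (SE 0.44, 95% interval -0.36 to 1.67) had an adjusted p of 1 and lay between 0.28 and 1.12 when single libraries were left out. The 8 collecting duct principal cell markers summed to 192, 168 and 149 CPM in N1 to N3 and 235, 153 and 231 CPM in H1 to H3. The 3 libraries with the highest marker sums, H1, H3 and N1, are also the 3 with the most Slc14a2, and the part of the markers in its values was not tested.

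**Figure D3:**
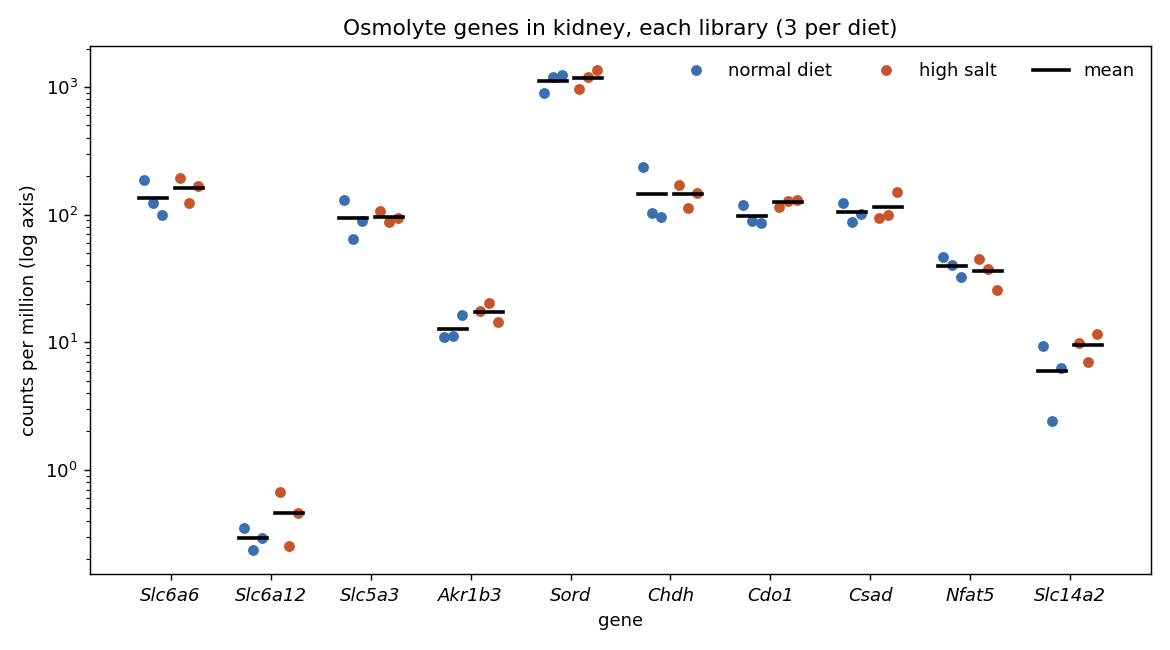
Level of each gene in each kidney library, in CPM on a log axis, with the normal diet in blue, high salt in orange and a black bar for the mean of 3 libraries. The diets overlap for all 10 genes, and Slc6a12 lies far below the others, under 1 CPM.

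Akr1b3 encodes aldose reductase, which reduces glucose to sorbitol and is a classical NFAT5 target (chr6:34302434-34317478, minus strand). Its liver level was 4.21, 4.03, 4.15 and 5.89 CPM in N1 to N4 and 2.77, 2.43, 3.28 and 3.41 CPM in HS5 to HS8. Every high salt value was under every normal diet value, the opposite direction to Slc6a6. The fitted log2 fold change was -0.62 (SE 0.21, 95% interval -1.09 to -0.15), which did not pass (adjusted p = 0.154). In kidney it was at 10.9, 11.2 and 16.2 CPM in N1 to N3 and 17.5, 20.2 and 14.3 CPM in H1 to H3. The kidney diets overlap through N3 and H3, and the log2 fold change was 0.44 (SE 0.24, 95% interval -0.11 to 0.98; adjusted p = 1).

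The Akr1b3 values depend on how reads were shared among near-identical copies. Gm6644, Gm12138 and Gm6736, annotated as processed pseudogenes, and Gm38056, a transcript still to be verified, match at least 99% of its bases over 900 or more. The Akr1b3 row held 29.8% to 45.9% of the summed counts of the 5 in liver and 28.9% to 41.7% in kidney. Summed, the liver levels were 14.2, 13.0, 10.9 and 12.8 CPM in N1 to N4 and 7.53, 7.42, 7.73 and 8.78 CPM in HS5 to HS8. The summed kidney levels were 37.9, 33.3 and 38.9 CPM in N1 to N3 and 48.6, 51.8 and 44.2 CPM in H1 to H3. With the copies summed, a choice made after seeing the data, the diets did not overlap in either tissue, high salt being lower in liver and higher in kidney. Of all genes in the main fits, 6.05% were without overlap and lower in liver, and 3.85% without overlap and higher in kidney. The summed log2 fold change was -0.70 in liver (SE 0.15; adjusted p = 0.0613) and 0.39 in kidney (SE 0.18; adjusted p = 1), and neither passed. Over all alternatives run, the adjusted p of Akr1b3 lay between 0.0524 and 0.378 in liver and between 0.475 and 1 in kidney.

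**Figure D4:**
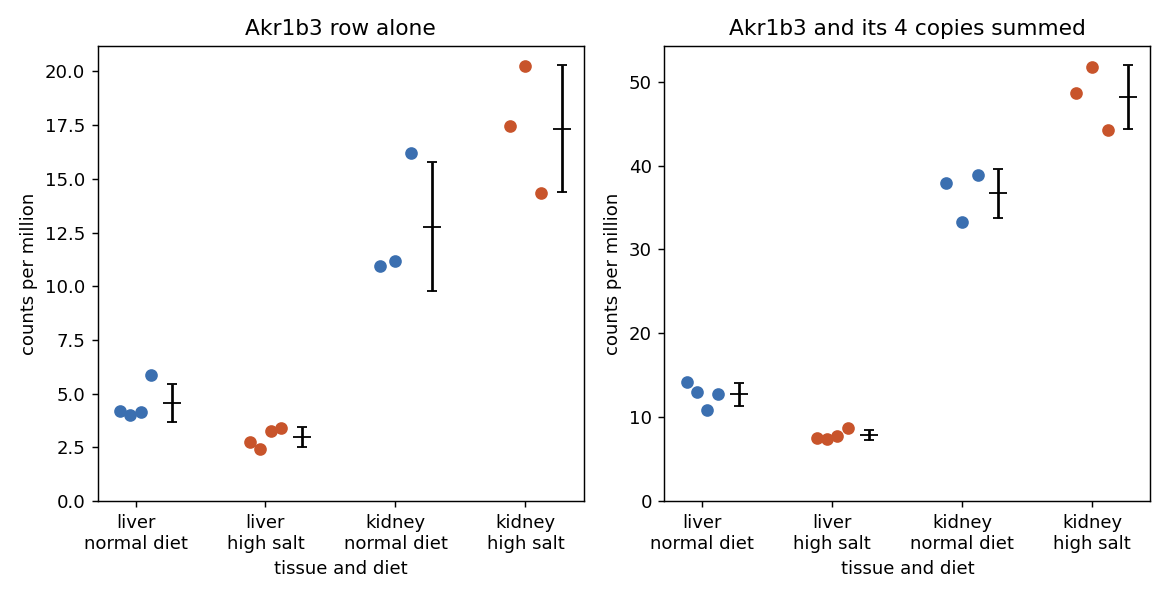
Akr1b3 level in CPM per library by tissue and diet, from the Akr1b3 row alone at left and with its 4 near-identical copies summed at right. Points are libraries, and the bars beside them give the mean and SD of 4 liver or 3 kidney libraries. Summed levels were 12.7 and 7.86 CPM in liver and 36.7 and 48.2 CPM in kidney on the normal diet and high salt.

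Sord encodes sorbitol dehydrogenase, which turns sorbitol into fructose and so acts after aldose reductase (chr2:122234749-122265340, plus strand). In liver it was at 1234, 1468, 1360 and 883 CPM in N1 to N4 and 1115, 1064, 1103 and 943 CPM in HS5 to HS8. The lowest library was N4, and the diets overlap. Here the log2 fold change was -0.23 (SE 0.21, 95% interval -0.69 to 0.24; adjusted p = 0.545). In kidney it was at 906, 1192 and 1237 CPM in N1 to N3 and 966, 1204 and 1362 CPM in H1 to H3, with a log2 fold change of 0.08 (SE 0.24; adjusted p = 1). A near-identical pseudogene, Gm6652, took 14.4% to 25.0% of the summed counts, and summing it left the liver value at -0.22.

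Chdh encodes the mitochondrial choline dehydrogenase that starts betaine synthesis (chr14:30009023-30040527, plus strand). Its locus overlaps Cacna1d on the other strand, and the strand setting of the counting is not given in the sources used here. In liver it was at 80.8, 80.4, 82.7 and 89.01 CPM in N1 to N4 and 156.5, 153, 101.6 and 137 CPM in HS5 to HS8. Every high salt library was above every normal diet library, and HS7 was the lowest of them, as it was for Slc6a6. The log2 fold change was 0.72 (SE 0.17, 95% interval 0.35 to 1.09) and the adjusted p 0.0746. Chdh therefore missed the threshold in edgeR. It passed in DESeq2 (0.72; adjusted p = 0.00296) and in edgeR without HS7 (0.83; adjusted p = 0.0396), and with HS5 and HS6 summed it stood at 0.66 (adjusted p = 0.251). Over its 19 alternatives the adjusted p ran from 0.00296 to 0.254.

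In kidney Chdh was at 238, 103 and 95.4 CPM in N1 to N3 and 171, 113.6 and 149 CPM in H1 to H3. N1 alone set the top of the range. The kidney log2 fold change was -0.01 (SE 0.37, 95% interval -0.87 to 0.85; adjusted p = 1), and without N1 it was 0.545 (adjusted p = 0.281). N1 also had the most proximal tubule marker RNA of the 6 libraries, 3365 CPM, and the part of that in the Chdh value was not tested.

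Cdo1 encodes cysteine dioxygenase, which oxidises cysteine on the way to taurine (chromosome 18). In liver it was at 1006, 1148, 843 and 1183 CPM in N1 to N4 and 917, 869, 884 and 797 CPM in HS5 to HS8. The diets overlap through N3, and the log2 fold change was -0.27 (SE 0.18, 95% interval -0.68 to 0.14; adjusted p = 0.414). In kidney it was at 118, 89.9 and 86.2 CPM in N1 to N3 and 115, 128.5 and 131 CPM in H1 to H3. N1 reached into the high salt range, and the log2 fold change was 0.35 (SE 0.21, 95% interval -0.13 to 0.82; adjusted p = 1).

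Csad encodes cysteine sulfinic acid decarboxylase, the next enzyme on the route to taurine (chr15:102176999-102204724, minus strand), and its locus overlaps Zfp740 on the other strand. Its liver level varied more than that of any other member, from 183, 153, 71.7 and 8.92 CPM in N1 to N4 to 430, 452, 173 and 289.5 CPM in HS5 to HS8. The diets overlap because HS7 lay under N1, and N4 stood far below the rest. The fitted log2 fold change was 1.69 (SE 0.70), with an adjusted p of 0.209, and it was 1.29 without N4 and 3.06 without N1 and N2. N4 is the library with the high neutrophil markers and the lowest sum of hepatocyte markers, and their part in its Csad level was not tested. In kidney Csad was at 123, 87.8 and 101 CPM in N1 to N3 and 93.6, 99.8 and 151 CPM in H1 to H3, with a log2 fold change of 0.14 (SE 0.25; adjusted p = 1).

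Nfat5 itself lies at chr8:107293470-107379517 on the plus strand. Its product is regulated by movement and modification as well as by amount, so its transcript level is not its activity. In liver it was at 5.52, 4.90, 27.5 and 16.6 CPM in N1 to N4 and 16.7, 16.6, 25.6 and 17.8 CPM in HS5 to HS8. N1 and N2 were low, N3 and HS7 high, and the diets overlap. Here the log2 fold change of 0.50 (SE 0.49; adjusted p = 0.575) turned to -0.20 without N1 and N2 and became 1.08 without N3. The lowest levels were in the libraries with the lowest mitochondrial shares, N1 and N2 (2.30% and 2.06%), and the highest in those with the highest, HS7 and N3 (19.2% and 29.6%). N4, with a share of 18.7%, was level with HS5 and HS6, with 12.3% and 13.0%. The part of the mitochondrial share in the Nfat5 level was not tested. In kidney Nfat5 was at 46.2, 40.2 and 32.4 CPM in N1 to N3 and 44.9, 37.7 and 25.7 CPM in H1 to H3, with a log2 fold change of -0.13 (SE 0.25, 95% interval -0.71 to 0.45; adjusted p = 1).

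**Figure D5:**
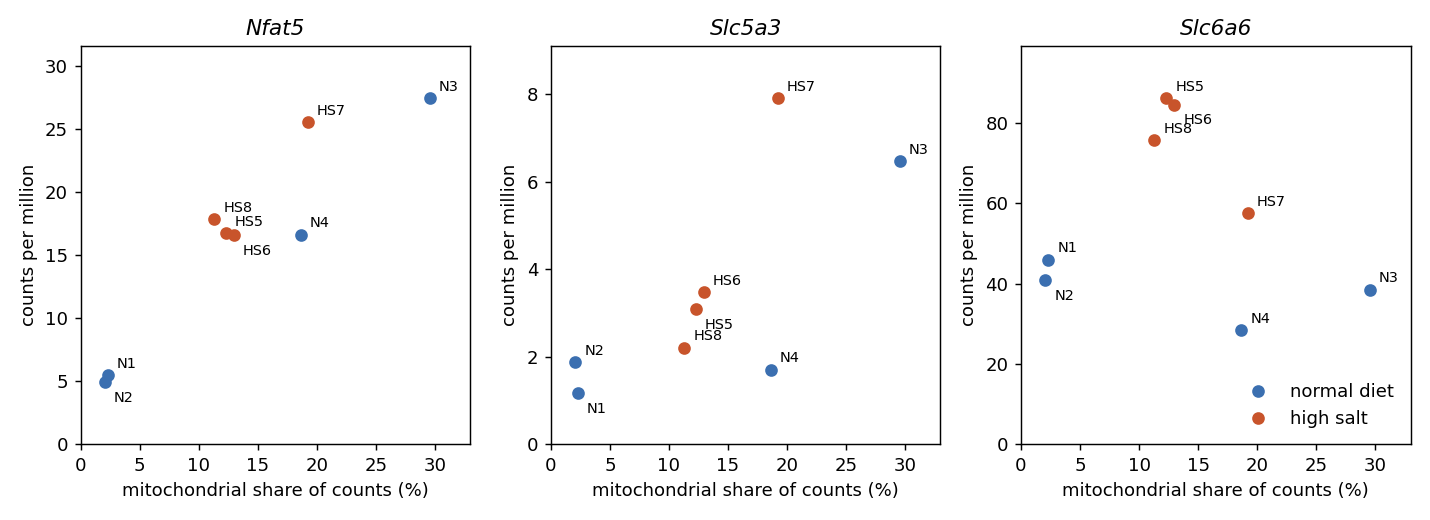
Nfat5, Slc5a3 and Slc6a6 in CPM against the mitochondrial share of counts in percent, one point per liver library, with the normal diet in blue and high salt in orange. Nfat5 and Slc5a3 are highest in N3 and HS7, while Slc6a6 is higher in all 4 high salt libraries than in N1 to N4.

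The liver difference minus the kidney difference was tested in 1 fit of all 14 libraries. Of the members other than Slc6a6, none of the 7 past the filter in each tissue passed (0.00% of 16633 genes did). Slc6a12 entered this fit through liver alone and is given without a test, at -0.76 (SE 0.39). Akr1b3 had the largest departure for its error, -1.05 (SE 0.30, 95% interval -1.69 to -0.41; adjusted p = 0.281). It was the only one of these members under an unadjusted p of 0.05, where 10.1% of genes were, and the only one DESeq2 called, along with 0.874% of all genes (-1.11; adjusted p = 0.0467, the lowest of 21 alternatives that reached up to 0.533). With the copies summed the value was -1.09 (SE 0.22; adjusted p = 0.11). For Slc6a6 the value was 0.73 (SE 0.37), given without a test, for Chdh 0.74 (SE 0.41; adjusted p = 0.55) and for Csad 1.53 (SE 0.91; adjusted p = 0.579). The diet effects on these genes were thus not shown to differ between the tissues.

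Some of these genes differed strongly between the tissues. Slc6a6 is given without a test here too, since its liver values chose it, and so is Slc6a12, which passed the filter of the joined fit through liver alone. Of the other 7 members, all past the filter in each tissue, edgeR called 5 on the normal diet, 3 higher and 2 lower in kidney than in liver. Among all 13669 genes past both filters 65.1% were called, 29.2% higher and 35.9% lower. Over all 16633 genes of the joined fit the shares were 65.1%, 32.2% and 32.9%, and 68.0% had an unadjusted p under 0.05. The members' count is thus near that of genes at large. Tissue goes together with the count table, the library size and any preparation batch, so these cannot be told apart. Levels in the next sentences are CPM on the scale of the joined fit, which differs from that of each tissue alone. When each tissue was scaled alone, a setting added after seeing the data, the median of all genes moved by 0.52 on the log2 scale toward kidney, and the share of called genes that were higher in kidney went from 49.5% to 66%.

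Slc6a12 was the most liver-weighted of the members, at 53.7 ± 3.36 CPM in liver (SD, n = 4) and 0.238 ± 0.0469 CPM in kidney (SD, n = 3), on 4 to 15 counts a kidney library, with a log2 difference of -7.79 (SE 0.30). Cdo1 followed with 1240 ± 195 and 79.9 ± 14 CPM and a log2 difference of -3.96 (SE 0.27; adjusted p = 6.74e-09 in edgeR). Slc5a3 went the other way, from 3.29 ± 2.81 CPM in liver to 77 ± 26.7 CPM in kidney (4.56, SE 0.54; adjusted p = 2.69e-06). The betaine carrier was thus a liver transcript and the inositol carrier a kidney transcript in these samples. The sample titles name the organ and not the part of it that was taken. Slc6a6 was at 111 ± 36 CPM in kidney and 45.9 ± 10.4 CPM in liver, a log2 difference of 1.27 (SE 0.26), and of 0.545 (SE 0.26) on high salt. Akr1b3 was at 10.4 ± 2.47 CPM in kidney and 5.40 ± 0.857 CPM in liver (0.95, SE 0.21; adjusted p = 0.00106).

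The other tissue differences were weaker or hung on a setting. Nfat5 was at 32.3 ± 5.54 CPM in kidney and 15.8 ± 12.1 CPM in liver, a log2 difference of 1.03 (SE 0.44; adjusted p = 0.0496) that was lost under 17 of 22 alternatives. Sord was lower in kidney by -0.70 on the log2 scale (SE 0.28; adjusted p = 0.0355), and with each tissue scaled alone the value was -0.18 (adjusted p = 0.566). Chdh at 0.26 (SE 0.29; adjusted p = 0.438) passed with each tissue scaled alone (0.78; adjusted p = 0.0245) and turned to -0.475 on high salt (adjusted p = 0.167) and to -0.30 without kidney N1 (adjusted p = 0.258). Csad at -0.58 (SE 0.65; adjusted p = 0.445) passed without liver N4 (-0.965; adjusted p = 0.0456) and on high salt (-2.11; adjusted p = 0.0142). Over the 22 alternatives the adjusted p ran from 0.00185 to 0.475 for Nfat5, 0.0065 to 0.566 for Sord, 0.0245 to 0.516 for Chdh and 0.0142 to 0.969 for Csad.

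Levels of different genes were compared per length, as CPM per kb of the longest protein-coding transcript, within each tissue's own scaling. In normal diet liver Cdo1 (655 ± 97) and Sord (526 ± 108) led and overlapped each other (SD, n = 4, in CPM per kb). Csad (45.7 ± 34.7) came next by mean, but with N4 at 3.91 its range reached down into that of Akr1b3. Slc6a12 (17.1 ± 1.46), Chdh (14.6 ± 0.701), Slc6a6 (6.22 ± 1.19) and Akr1b3 (3.29 ± 0.636) followed without overlap among themselves. Nfat5 (1.02 ± 0.799) and Slc5a3 (0.257 ± 0.226) came last and overlapped. The liver of these mice thus held most transcript, among these genes, for sorbitol oxidation and the first taurine step and least for inositol uptake.

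In normal diet kidney the order was Sord (473 ± 76.2), Cdo1 (61.5 ± 10.9), then Csad (45.6 ± 7.80), Chdh (25.5 ± 14.1) and Slc6a6 (22.0 ± 7.20), all in CPM per kb (SD, n = 3). Csad overlapped Chdh, and Chdh overlapped Slc6a6. Akr1b3 (9.21 ± 2.15) and Slc5a3 (8.66 ± 3.01) overlapped, ahead of Nfat5 (2.96 ± 0.516), Slc14a2 (1.49 ± 0.863) and Slc6a12 (0.110 ± 0.0219). Sord stood far above every other member in kidney, while the sorbitol-making enzyme Akr1b3 was among the lower ones, though its level leaves out the reads given to its copies.

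Among the liver genes with a mean of at least 50 counts, 12184 besides Slc6a6, the profiles closest to it over 8 libraries were those of H2-Q6, Rassf8 and Tkt. Their root mean square distances on the centred log2 CPM scale were 0.113, 0.144 and 0.148, where the Slc6a6 profile itself has an SD of 0.59. H2-Q6 belongs to the class I histocompatibility genes, which resemble each other closely, so its reads may be shared with relatives. Tkt encodes transketolase of the pentose phosphate pathway. Chdh was the nearest member (0.263, position 54), while Slc6a12 was at position 4609 and Csad at 11890. In kidney the closest of 11820 profiles over 6 libraries were Bcas3 (0.033), Msn (0.045) and Cdh6 (0.051) for Slc6a6 and Slc19a3 (0.03), Gm15542 (0.047) and Gas8 (0.068) for Slc5a3. Neither gene was the other's close neighbour there, at a distance of 0.271.

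Beyond the members, 52 genes in 7 lists make up the wider pathway. In liver 45 were tested, 28 had a higher level on high salt, and edgeR called 0 (of all genes 48% were higher and 1.00% called). At an unadjusted p under 0.05 there were 7 higher and 4 lower, where 21.2% of all genes were. DESeq2 called 6, and 7.60% of all genes, and limma on the normalized values called 1 with a pseudocount of 1, and 1.04% of all genes. The median log2 fold change was 0.19 against -0.02 over all genes. By list the liver medians were 0.30 for 3 osmolyte and urea transporters, 0.18 for 4 subunits of the LRRC8 volume-regulated channels that release osmolytes, and 0.16 for 6 polyol and inositol enzymes. They were -0.07 for 9 choline, betaine and glycerophosphocholine enzymes and -0.18 for 6 taurine and cysteine enzymes. They were 0.24 for 9 other hypertonicity-induced or NFAT5 target genes and 0.38 for 8 NFAT5 activators and partners. No list had a gene called in edgeR.

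Of these liver genes 3 are named here after their values were seen, because they came closest to the threshold. Gpcpd1, a phosphodiesterase that cuts glycerophosphocholine, was at 121 to 226 CPM on the normal diet and 41.8 to 79.1 CPM on high salt, with no overlap (log2 -1.29, SE 0.27; adjusted p = 0.0574). Impa2, an inositol monophosphatase, was at 1.07 to 1.77 and 2.56 to 3.25 CPM, again with no overlap (1.04, SE 0.24; adjusted p = 0.0702). Bhmt, which uses betaine to methylate homocysteine, was at 704 to 985 and 244 to 600 CPM without overlap (-1.32, SE 0.31; adjusted p = 0.0746). Chdh values were thus higher and Bhmt values lower on high salt, and neither passed in edgeR with all libraries. On the list of 9 choline, betaine and glycerophosphocholine enzymes 4 were higher, with a median of -0.07. Aldh7a1 on that list overlapped between the diets (-0.19, SE 0.17; adjusted p = 0.542 in edgeR). No direction of betaine synthesis or use is read from these values. With HS5 and HS6 summed the values were -1.35 for Gpcpd1, 1.05 for Impa2 and -1.19 for Bhmt (adjusted p = 0.182, 0.232 and 0.247).

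In kidney 51 of the 52 genes were tested, 31 had a higher level on high salt, and edgeR and DESeq2 each called 0. Of all kidney genes 46.3% were higher, and 0.00% and 0.0694% were called. At an unadjusted p under 0.05 there were 0 higher and 2 lower, where 2.01% of all genes were, namely the heat shock genes Hspa1a and Hspa1b, named after their values were seen. Hspa1a was at 2.498, 4.86 and 29.3 CPM in N1 to N3 and 3.80, 3.21 and 3.14 CPM in H1 to H3, so N3 alone stood out. Hspa1b had the same shape, with 69.3 CPM in N3 and 5.40 to 14.6 CPM in the other 5 libraries. The kidney list medians lay between -0.30 and 0.13, and the median over the 51 genes was 0.07.

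Between the tissues, 45 of the 52 pathway genes passed the filter in each tissue alone, and of these 16 were called higher and 18 lower in kidney, beside 29.2% and 35.9% of all such genes. The transport list held 3 of them, with the creatine carrier Slc6a8 higher in kidney (log2 difference 4.40) and Slc6a13 (-2.54) and Slc38a2 (-2.23) lower. Slc6a13 is the closest relative of Slc6a12 on the list and lay in the same direction. The inositol carriers Slc5a11 and Slc2a13 did not pass the liver filter, and on each tissue's own scale they were, on the normal diet, at 8.64 ± 2.29 and 4.66 ± 2.57 CPM in kidney (SD, n = 3) and at 0.0497 ± 0.0680 and 0.0581 ± 0.0690 CPM in liver (SD, n = 4). Of the 9 other hypertonicity-induced or NFAT5 target genes past both filters, 8 were called higher in kidney and 0 lower. Hspa1a and Hspa1b are among these 8, and their kidney levels were highest in N3 (29.3 and 69.3 CPM on the kidney scale). Among the choline and betaine enzymes 1 was higher and 6 lower in kidney, led by Bhmt (-8.17), and among the taurine and cysteine enzymes 1 was higher and 4 lower, led by Baat (-8.93), which joins taurine to bile acids.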

How the data were processed

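Members and gene lists were chosen with earlier results of these data known. Expected counts per gene, and normalized values that are a signal per gene, were deposited by the authors, per the file headers. The submitters' processing notes name Partek 7.0, STAR 2.5.3a, DESeq2 and mm10. The annotation release, and whether counting used strand, are not given in the sources used here. Libraries were made from total RNA with a SMARTer mRNA kit, per the labels. Unused sample columns came to 0, and 0 rows named no gene.

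Expected counts were rounded and tested with edgeR 4.0.16 in R 4.3.3 (quasi-likelihood, TMM, filterByExpr by diet) in each tissue apart, and over the 17600 genes both tables share for the tissue and interaction contrasts. CPM uses TMM library sizes, and a kilobase scale uses the longest protein-coding transcript of GENCODE M21. Positions are those of GENCODE M21 on GRCm38, whose starts equal the deposited ones for 99.4% of matched genes. Near-identical copies (at least 99% over 900 bases) were found with blastn 2.17.0. Promoter sequences are from RefSeq, GRCm38.p6.

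All members were named, list genes past an adjusted p of 0.05 in a diet fit would have been, and profiles were compared by root mean square distance with a prior count of 2. The fits were tested on simulated data in which 200 genes differed by a log2 change of 2. Of these, 164 were recovered in liver (15130 genes), 142 in kidney (15847), and 78 for the interaction and 155 for the tissue contrast (16633 each). False calls were 5, 7, 3 and 5 in the same order. That change is larger than any diet fold change of a member in the main fits, and recovery of smaller changes was not tested. Alternatives were RLE scaling, DESeq2 1.42.0, limma 3.58.1 on log2 of the normalized values (pseudocount 1 or 0.1), other filters, removal of mitochondrial genes, joined fits, summed or omitted libraries and a replicate block. Summing near-identical copies and scaling each tissue alone were chosen after seeing the data. The high salt liver columns could not be tied to titled samples. A count of 0 is known only to lie under 3 counts, and this covers counting error only.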

Additional observations from a re-analysis of the deposited data

Results flagged for a closer look

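In 18 groups of 4 liver libraries (9 members, both diets) the most distant library was compared with the other 3, and 3 libraries stood apart. A rate of 5% would give 0.9, if groups and libraries were independent. The groups share the same libraries, and HS5 and HS6 were much alike, so nothing is read from that figure. Akr1b3 was 5.887 CPM in normal diet N4, against 4.033 to 4.208 CPM in N1 to N3. With its near-identical copies summed N4 was at 12.8 CPM, inside the span of the other 3. Slc5a3 was 6.479 CPM in normal diet N3, against 1.165 to 1.88 CPM in the other 3. Nfat5 was 25.57 CPM in HS7, against 16.6 to 17.84 CPM in the other high salt libraries. N3 and HS7 had the highest mitochondrial shares of the liver libraries, 29.6% and 19.2%. N4 had 18.7%, with Slc5a3 at 1.706 CPM and Nfat5 at 16.63 CPM. The part of the mitochondrial share in these levels was not tested.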

How the results depend on the processing

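Member values under alternatives came to 617 (Slc6a6 outside kidney and Slc6a12 in the tissue contrast left out). Of these, 567 kept their direction and their side of the threshold, 28 lost a call, 6 gained one and 16 turned sign. The 617 include 21 interaction values of Slc6a12, which entered that fit through liver alone, and all 21 are among those kept. The sign of Nfat5 in liver turned to -0.2 with N1 and N2 left out. In kidney Chdh turned to 0.007 with at least 10 counts in every library, 0.124 in limma with either pseudocount, 0.104 with the replicate block, 0.545 without N1 and 0.138 without H2. With single kidney libraries left out Chdh ranged from -0.237 to 0.545. Other kidney signs turned in the same way: Sord to -0.044 (N1) and -0.035 (H3; range to 0.21), Slc5a3 to -0.187 (N2), -0.014 (N3) and -0.057 (H1; range to 0.325), Nfat5 to 0.062 (H3; range from -0.318) and Csad to -0.106 (H3; range to 0.282). Between the tissues Chdh turned to -0.475 on high salt and -0.298 without kidney N1 (range to 0.527). The causes were not tested.

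Over all genes the liver count of 152 became 1122 in DESeq2, 260 with all 14 libraries in 1 fit, 12 with HS5 and HS6 summed, 52 without N1 and N2, and 12 to 765 with single libraries left out (765 without N3, 12 without HS6). The kidney count of 0 became 11 in DESeq2. The interaction count of 0 became 145 in DESeq2 and 0 to 7 with single libraries left out (7 without HS7). The tissue count of 10823 stayed within 1.5 times. In the tissue contrast the Sord call was lost under 11 of 22 alternatives.

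In kidney the replicate block gave 0 calls, as without it. Same-numbered libraries deviated together in some pairs and not in every one (r = 0.407, 0.373 and -0.09, and N3 was closest to H2). With 3 libraries for each diet these correlations cannot show whether the numbers pair them. In liver, no paired analysis was possible because the high salt columns carry no title's number. Slc6a12 in kidney, with 4 to 15 counts, is limited by depth.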
